A study of Mus musculus with 17 samples.

Results

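Kidneys that had lost Hif1a were compared directly with kidneys that had lost Hif2a in mice that carried the same oncogenic fusion gene. The comparison took 7 of the 17 sequenced kidneys, chosen by their titles: 4 PRCC-TFE3KI/HIF1a KO kidneys (Hif1a KO) and 3 PRCC-TFE3KI/HIF2a KO kidneys (Hif2a KO). All 7 carried the Cre-dependent lsl-PRCC-TFE3 knock-in allele and the KSP-Cre transgene, which drives Cre from the promoter of cadherin 16 (Cdh16) in epithelial cells of the kidney tubules. The Hif1a KO mice had the genotype HIF1af/f and the Hif2a KO mice HIF2af/f, so each group carried one floxed gene that the other did not. The other 10 kidneys of the series were 3 with both floxed genes (DKO, genotype HIF1af/f,HIF2af/f with the knock-in and KSP-Cre(+)), 3 with the knock-in and Cre alone (KI), and 4 without Cre. The latter, called Cre(-), carried the unrecombined knock-in allele, and replicates 1 and 2 of them were HIF1af/f while replicates 3 and 4 had no floxed Hif gene. Kidneys were taken at 8 months of age. Each library is whole kidney, so cells in which Cre never acted are in every measurement, and a lower count can come from fewer cells of a type or from less RNA per cell, which cannot be told apart here.

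HIF1a and HIF2a, the latter encoded by Epas1, are oxygen-labile transcription factors that share the partner Arnt and bind the same short DNA core. Prolyl hydroxylases mark both for VHL-dependent degradation when oxygen is sufficient. HIF1a is best known for driving glycolysis and restraining mitochondrial use of pyruvate, HIF2a for erythropoietin, iron handling and growth factors, and HIF3a is a paralog that can restrain the others. PRCC-TFE3 is the fusion of the PRCC gene with the lysosomal and metabolic transcription factor TFE3, and it drives a form of renal cell carcinoma. The comparison asks which genes of a fusion-bearing kidney depend on which of the 2 factors was lost.

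The 7 libraries held 16710464 to 24668827 counts, at which 3 counts, taken as the floor, equal 0.122 to 0.18 CPM, a gene's counts relative to the TMM-scaled library size. Gene values below are CPM in the order of the replicates, and a log2 fold change is Hif1a KO minus Hif2a KO from edgeR's quasi-likelihood test with its standard error (SE). A gene is said to be higher or lower, or to have passed the threshold, only where the Benjamini-Hochberg adjusted p over all genes tested was under 0.05. The labels do not say that the mice were littermates or of one sex, and neither entered the fit. The p-values weigh each difference against the spread within groups, which was estimated from all 17 libraries.

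The targeted genes themselves differed little. Hif1a (ENSMUSG00000021109.13, chromosome 12, 73901375 to 73947530 of GRCm38) had 163, 193, 189 and 198 CPM in Hif1a KO and 170.1, 199 and 256 CPM in Hif2a KO. The groups overlapped, with a log2 fold change of -0.16 ± 0.13 (SE) (edgeR adjusted p = 0.585). Epas1 (ENSMUSG00000024140.10, chromosome 17, 86753700 to 86833410) had 163, 169, 166 and 179 CPM in Hif1a KO and 146, 149 and 136 CPM in Hif2a KO. All 3 Hif2a KO kidneys lay below all 4 Hif1a KO kidneys, but the log2 fold change of 0.24 ± 0.09 (SE) did not pass the threshold (edgeR adjusted p = 0.214). These sums cover every exon and every cell of the kidney, so they do not measure whether a floxed exon was removed. The shares of the transcripts Hif1a-202 and Hif1a-201, chosen after their values were seen, did separate the floxed Hif1a allele, by narrow gaps. Hif1a-202 made up 24.2%, 42.1%, 26.0% and 28.1% of the TPM of Hif1a in Hif1a KO and 22.8%, 18.1% and 19.8% in Hif2a KO. Its share was 25.5% to 35.5% in DKO and 14.0% to 22.7% in KI. It was 50.1% and 51.5% in the Cre(-) kidneys with the floxed Hif1a allele and 16.6% and 12.9% in those without it. Hif1a-201 made up at most 73.9% in any kidney with that allele and at least 74.6% in any without it. Cdh16, whose promoter drives Cre, was present in all 7 kidneys at 749 to 922 CPM in Hif1a KO and 728 to 809 CPM in Hif2a KO.

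Of 17011 genes tested, 73 differed between Hif1a KO and Hif2a KO (0.429%), 56 of them higher in Hif1a KO (0.329%) and 17 lower (0.0999%). In 66 of the 73 the gene is protein-coding. The groups did not overlap for any of the 73, against 2562 (15.1%) of all genes tested. The changes were modest, with a median log2 fold change of 0.96 among the higher genes and -0.75 among the lower, against -0.013 over all genes, and 25 higher and 7 lower genes reached an absolute value of 1. At an unadjusted p under 0.05 there were 2543 genes (14.9%), of which 1359 (7.99%) were higher and 1184 (6.96%) lower. The plot of all genes shows that one point stands far from the others, the pseudogene Gm6969, and that the rest form a cloud close to the threshold. The count rested on single kidneys. Without Hif2a KO replicate 2 only Gm6969 passed the threshold, and without replicate 3 of that group 9 genes did, while without its replicate 1 there were 192. Leaving out a Hif1a KO kidney gave 18 to 49 genes, DESeq2 called 344 higher and 199 lower, and a fit with a score of immediate early genes, added after the data were seen, called 2, Gm6969 and Prob1. All 73 kept their direction under every alternative. They were chosen for their difference in these same kidneys, so a kept direction was likely from the start and adds no support.

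**Figure D1:**
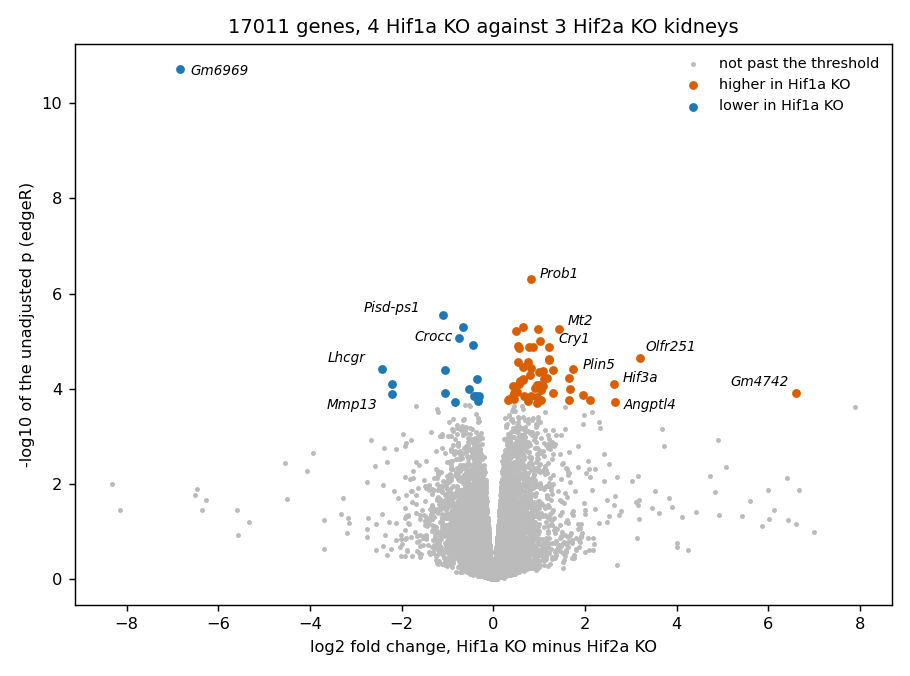
Log2 fold change of Hif1a KO minus Hif2a KO (horizontal) against -log10 of the unadjusted p of edgeR's test (vertical) for 17011 genes, 1 point a gene. Orange points are the 56 genes higher and blue points the 17 genes lower in Hif1a KO at an adjusted p under 0.05, and Gm6969, at a log2 fold change of -6.85, stands above all others on the vertical axis.

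Among the genes that differed most were Angptl4, Pdk4 and Plin5, regulators of fuel use that fasting, glucocorticoids or PPAR alpha are known to induce, and all 3 were higher in Hif1a KO. Angptl4, the secreted inhibitor of lipoprotein lipase, had 249, 182, 134 and 149 CPM in Hif1a KO and 41.7, 20.0 and 23.5 CPM in Hif2a KO. The lowest Hif1a KO kidney was thus above the highest Hif2a KO kidney by a wide margin, and Angptl4 was 6.27-fold higher (log2 fold change 2.65 ± 0.54 (SE), edgeR adjusted p = 0.0443). Pdk4, the kinase that shuts pyruvate dehydrogenase, had 702, 745, 457 and 664 CPM against 193, 168 and 242 CPM. It was 3.19-fold higher with no overlap (1.67 ± 0.32 (SE), edgeR adjusted p = 0.036). Plin5, the lipid droplet coat protein of oxidative tissues, had 11.0, 5.61, 7.42 and 5.7 CPM against 2.33, 1.66 and 2.63 CPM. Hif1a KO replicate 1 was the highest and the groups did not overlap (1.75 ± 0.31 (SE), edgeR adjusted p = 0.0258). Of the 7 fits that left out a kidney, Angptl4 passed in 1, Pdk4 in 0 and Plin5 in 3.

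Hif3a, the third HIF alpha gene, was 6.2-fold higher in Hif1a KO. It had 10.9, 7.37, 9.02 and 10.1 CPM in Hif1a KO and 1.3, 2.23 and 0.962 CPM in Hif2a KO, so every Hif1a KO kidney was more than 3 times the highest Hif2a KO kidney (2.63 ± 0.49 (SE), edgeR adjusted p = 0.0336). Of 19 tested genes of the HIF system (alpha and beta subunits, hydroxylases and the VHL complex) only Hif3a passed, against 0.429% of all genes. In this list 5 had an unadjusted p under 0.05, all higher (7.99% of all genes), and DESeq2 called 2, all higher (344 of 17011 genes). With 1 kidney left out, Hif3a passed only in the fit without Hif1a KO replicate 2. In the kidneys outside the comparison Hif3a had 2.05, 1.74 and 3.86 CPM in DKO, 1.15, 4.25 and 6.9 CPM in KI and 3.02, 5.94, 6.88 and 5.24 CPM in Cre(-). The DKO kidneys lay below all Hif1a KO kidneys, and 2 of the 3 KI kidneys lay above all Hif2a KO kidneys.

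Some genes known to respond to glucocorticoids, Fkbp5, Tsc22d3 and Mt2 among them, were higher in Hif1a KO. Fkbp5, a co-chaperone that dampens the glucocorticoid receptor, had 378, 259, 321 and 335 CPM in Hif1a KO and 90.3, 78.6 and 54.1 CPM in Hif2a KO. The groups were far apart, at a 4.35-fold difference (2.12 ± 0.43 (SE), edgeR adjusted p = 0.0437). Tsc22d3, the glucocorticoid-induced leucine zipper, had 253, 189, 212 and 249.5 CPM against 87.5, 72.3 and 55.2 CPM and was 3.15-fold higher (edgeR adjusted p = 0.0437). Mt2, a metal-binding metallothionein, had 84.8, 85.2, 65.8 and 53.2 CPM against 24.8, 28.3 and 27.4 CPM. It was higher as well (1.43 ± 0.21 (SE), edgeR adjusted p = 0.0132), while its neighbour Mt1, which is of the same family, had a log2 fold change of 0.88 and missed the threshold (edgeR adjusted p = 0.0908). Bcl6, a transcriptional repressor, had 43.6, 35.7, 35.9 and 34.4 CPM against 19.7, 23.1 and 23.1 CPM and was 1.7-fold higher (edgeR adjusted p = 0.0443). Of the 7 fits that left out a kidney, Fkbp5 and Tsc22d3 each passed in 1, Mt2 in 5 and Bcl6 in 0.

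These genes also varied among the kidneys of the KI group, which had neither floxed gene. Fkbp5 had 62.7, 210.2 and 236 CPM in KI, 57.2, 48.1 and 104 CPM in DKO and 76.2, 164, 210.4 and 192 CPM in Cre(-), so KI replicate 1 lay among the Hif2a KO kidneys and the other two KI kidneys between the groups. Zbtb16, a zinc finger gene induced by glucocorticoids, had 117, 107, 108 and 122 CPM in Hif1a KO, 40.8, 30.4 and 11.9 CPM in Hif2a KO and 9.14, 67.7 and 101 CPM in KI. The knockout groups did not overlap, yet the log2 fold change of 2.03 ± 0.63 (SE) did not pass the threshold (edgeR adjusted p = 0.148). Such spread within a genotype is what the test weighs the difference against, and whether stress, feeding or the hour of collection differed between the groups was not tested.

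Lists for these pathways were made after their leading genes had been seen, so the counts describe and carry no weight of their own. Of 37 tested genes known to be induced through the glucocorticoid receptor, 7 were higher, against 0.329% of all genes, and 0 lower. In this list 35 had a positive log2 fold change, against 47.8% of all genes, and the median was 0.75. The count was 0 without Hif2a KO replicate 2 or 3 and with the early gene score, 1 without Hif1a KO replicate 1, 3 or 4, 2 without Hif1a KO replicate 2 and 18 by DESeq2. Of 42 tested PPAR alpha targets, 7 were higher (0.329% of all genes) and 0 lower, 40 were positive (47.8% of all genes) and the median was 0.63. This count was 0 without Hif2a KO replicate 2 or 3, 1 or 2 with a Hif1a KO kidney left out, and 18 with a median of 0.965 without Hif2a KO replicate 1. Both lists hold Angptl4 and Pdk4. The called PPAR alpha targets include the acyl-CoA thioesterases Acot1, Acot2 and Acot12 and the peroxisome division gene Pex11a. Acot1 had 141, 141, 103 and 136 CPM against 79.5, 48.0 and 58.1 CPM (1.07 ± 0.20 (SE), edgeR adjusted p = 0.0346). Acot1 and Acot2 share 95.1% of their bases over 1274 aligned bases of their transcripts, so reads may have been divided between them and their separate values are uncertain. Acot12, which hydrolyses acetyl-CoA, was 2.06-fold higher (edgeR adjusted p = 0.0437). Pex11a had 60.2, 41.4, 46.1 and 50.7 CPM against 28.6, 21.0 and 26.4 CPM (0.97 ± 0.14 (SE), edgeR adjusted p = 0.0132), a clear separation. Ppara itself had 29.3, 14.0, 19.6 and 18.9 CPM against 15.7, 9.19 and 9.82 CPM, overlapping groups, and Nr3c1, the glucocorticoid receptor, had a log2 fold change of -0.15 (edgeR adjusted p = 0.166 and 0.406).

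**Figure D2:**
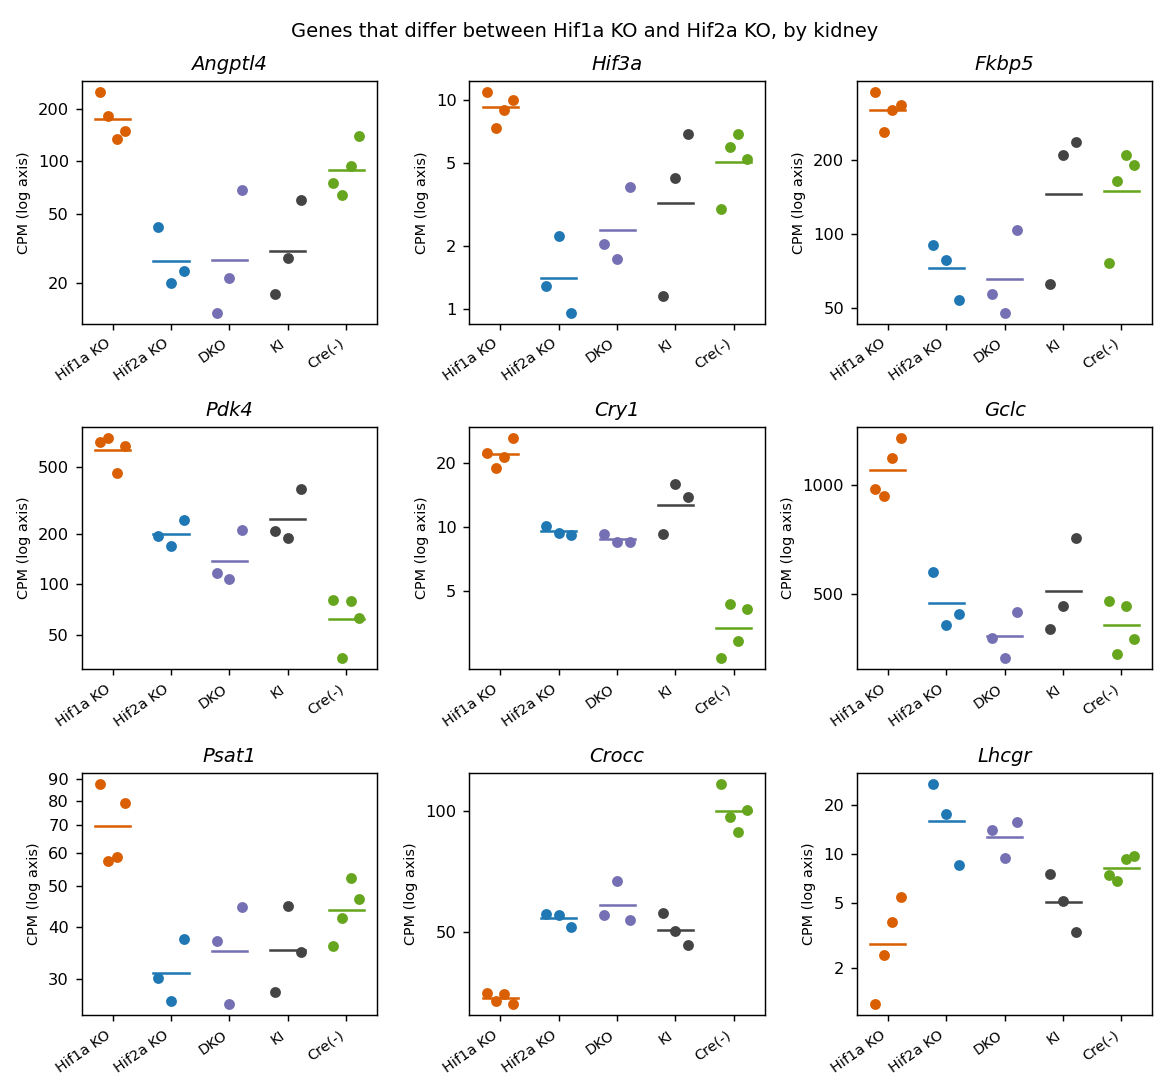
CPM on a log axis for 9 genes that passed the threshold between Hif1a KO (orange) and Hif2a KO (blue), with DKO, KI and Cre(-) kidneys beside them; each point is 1 kidney and each bar the geometric mean of its group. In every panel all 4 Hif1a KO kidneys lie on one side of all 3 Hif2a KO kidneys, while the KI kidneys are often spread between them.

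The clock list held called genes as well. Cry1, a repressor of the circadian clock, had 22.3, 19.1, 21.4 and 26.4 CPM in Hif1a KO and 10.1, 9.41 and 9.21 CPM in Hif2a KO. It was 2.33-fold higher with tight groups (1.22 ± 0.19 (SE), edgeR adjusted p = 0.0148). Of 19 tested clock genes 2 passed, both higher (0.429% of all genes called), 13 had an unadjusted p under 0.05 (14.9% of all genes) with 10 higher and 3 lower, and DESeq2 called 6, all higher. None passed without Hif2a KO replicate 2 or 3. Per2, a light- and glucocorticoid-responsive repressor, had 82.5, 65.8, 93.1 and 86.2 CPM against 24.8, 29.6 and 28.6 CPM and did not pass (1.57 ± 0.37 (SE), edgeR adjusted p = 0.0797). The activators pointed the other way without passing, with Arntl at -0.73 and Npas2 at -0.91 (edgeR adjusted p = 0.158 and 0.166). Clock genes cycle with the hour of the day, and the hour of collection is not in the sources used here, so a genotype effect and a difference in hour cannot be told apart.

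Hif3a and Cry1 are printed below as the HIF paralog and the clock gene that led their groups. The lines give the 250 bases before the RefSeq gene start (GRCm38.p6), from chr7:17062428-17062677 for Hif3a and from chr10:85185055-85185304 for Cry1, both on the minus strand. Capitals mark the HIF response element cores ACGTG and GCGTG on either strand, which read CACGT and CACGC where they lie on the other strand, and CACGTG holds the core on both.
Hif3a: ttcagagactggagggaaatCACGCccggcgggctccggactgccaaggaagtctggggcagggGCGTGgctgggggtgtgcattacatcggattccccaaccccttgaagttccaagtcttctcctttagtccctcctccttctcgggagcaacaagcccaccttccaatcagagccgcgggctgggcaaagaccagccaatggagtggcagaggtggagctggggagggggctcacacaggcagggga
Cry1: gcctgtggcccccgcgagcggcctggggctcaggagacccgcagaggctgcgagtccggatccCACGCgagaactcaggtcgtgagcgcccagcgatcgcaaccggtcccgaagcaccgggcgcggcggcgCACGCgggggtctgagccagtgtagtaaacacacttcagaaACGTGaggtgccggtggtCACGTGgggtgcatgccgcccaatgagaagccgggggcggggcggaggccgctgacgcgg
Hif3a holds 2 cores and Cry1 holds 5, of which 2 overlap in a CACGTG E-box, the core bound by clock and MiT/TFE factors. Such cores are common: either form is in 56.6% of the same windows of 12265 tested genes, in 27 of the 43 higher genes and in 7 of the 10 lower genes that have a window. ACGTG alone is in 23.1% of windows and in 8 of the 43, and CACGTG in 9.08% and in 4 of the 43 (Ap1s2, Bcl6, Cry1 and Fkbp5). The glucocorticoid receptor core AGAACA, searched on both strands, is in 14.0% of windows and in 5 of the 43.

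Other genes higher in Hif1a KO served amino acid, thiol and bile acid metabolism. Gclc, the catalytic subunit of the enzyme that starts glutathione synthesis, had 974, 932, 1189 and 1348 CPM against 576, 411 and 441 CPM. It was 2.33-fold higher (1.22 ± 0.21 (SE), edgeR adjusted p = 0.0222), and its partner subunit Gclm had 252, 247, 295 and 303 CPM against 221, 191 and 202 CPM, groups that did not overlap (edgeR adjusted p = 0.0743). Nr1h4, the bile acid receptor FXR, had 84.8, 46.8, 49.2 and 60.7 CPM against 31.3, 25.0 and 21.5 CPM and was 2.32-fold higher (edgeR adjusted p = 0.0222). Psat1, an enzyme of serine synthesis, had 87.9, 57.4, 58.7 and 79.2 CPM against 30.2, 26.6 and 37.5 CPM (1.17 ± 0.21 (SE), edgeR adjusted p = 0.0305). Every Hif1a KO kidney was above every Hif2a KO, DKO, KI and Cre(-) kidney for Psat1. Phgdh, the enzyme ahead of Psat1 in the same pathway, was level at 23.1 to 32.7 CPM and 23.5 to 31.4 CPM (edgeR adjusted p = 0.923). Slc38a2, an amino acid transporter, Slc25a22, the mitochondrial glutamate carrier, and Castor2, a relative of the arginine sensor of mTORC1, were 1.57-, 1.58- and 2-fold higher (edgeR adjusted p = 0.0305, 0.0258 and 0.0336). A list of serine synthesis, amino acid transport and ATF4 response was also made after values were seen, so its counts only describe. Of its 23 tested genes 5 were higher, against 0.329% of all genes, and 0 lower. In it 15 had a positive log2 fold change, against 47.8% of all genes, and the median was 0.20. None passed without Hif1a KO replicate 3 or 4 or Hif2a KO replicate 2 or 3. Atf4 and Asns did not pass (log2 fold changes 0.22 and -0.04).

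The lowest adjusted p among the higher genes was that of Prob1, a proline-rich protein, with 59.4, 46.2, 50.2 and 59.8 CPM against 31.5, 30.1 and 30.4 CPM (0.81 ± 0.10 (SE), edgeR adjusted p = 0.00432). Akap1, which anchors protein kinase A at mitochondria, had 163, 157, 162 and 165 CPM against at most 108 CPM and was 1.57-fold higher (edgeR adjusted p = 0.0132). The kidneys of each group lay within a few CPM of each other. Kitl, the ligand of the receptor Kit, had 121, 148, 140.1 and 164 CPM against 78.6, 70.1 and 73.1 CPM and was 1.94-fold higher (edgeR adjusted p = 0.0336). Apold1, a gene of activated endothelium, Col13a1, a membrane-bound collagen, and Kcnt1, a sodium-activated potassium channel, were 2.48-, 3.89- and 2.48-fold higher. Olfr251, an olfactory receptor gene, was also past the threshold at 3.17, 1.66, 2.79 and 2.03 CPM against 0.432, 0.175 and 0.152 CPM, which in Hif2a KO is close to the floor. Gm8798, a pseudogene that shares 96.7% of its bases with Ces2d-ps, was higher at 1.25 to 2.03 CPM against 0.306 to 0.734 CPM, and reads may be split between the copies. Prob1, Akap1, Kitl, Olfr251, Psat1 and the other genes of these paragraphs outside the rule for named genes were picked after their values were seen.

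Fewer genes were lower in Hif1a KO. Crocc, which encodes rootletin of the ciliary rootlet, had 35.5, 33.8, 35.1 and 33.2 CPM in Hif1a KO and 55.7, 55.2 and 51.7 CPM in Hif2a KO. It was 1.58-fold lower with little spread (-0.66 ± 0.10 (SE), edgeR adjusted p = 0.0132), and passed in all but 1 of the fits that left out a kidney. The DKO kidneys, at 55.1, 67.1 and 53.7 CPM, and the KI kidneys, at 56.0, 50.6 and 46.4 CPM, lay above all Hif1a KO kidneys. Lhcgr, the luteinizing hormone receptor, had 1.19, 2.39, 3.84 and 5.46 CPM against 27.0, 17.5 and 8.55 CPM and was 5.41-fold lower (-2.43 ± 0.43 (SE), edgeR adjusted p = 0.0258). Both groups were uneven, with more than a 3-fold range within each. Mmp13, a collagenase, had 0.358, 0.519, 0.249 and 0.664 CPM against 1.94, 2.63 and 1.82 CPM and was 4.64-fold lower (edgeR adjusted p = 0.0403). Gpr84, a fatty acid receptor of myeloid cells, passed at 0.0597, 0.156, 0.149 and 0.156 CPM against 0.734, 0.525 and 0.658 CPM, which is 11 counts in all over the 4 Hif1a KO libraries and 42 over the 3 Hif2a KO libraries.

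Smaller decreases were found in Tgfbr2, the type II receptor of TGF beta, at 118, 121, 129 and 121 CPM against 139, 159 and 159.6 CPM (-0.32 ± 0.06 (SE), edgeR adjusted p = 0.0403). Parp9, a partner of an interferon-induced ubiquitin ligase, had 32.8, 33.9, 35.9 and 35.4 CPM against 44.1, 47.9 and 42.5 CPM (-0.38 ± 0.08 (SE), edgeR adjusted p = 0.0403). Neither gene's groups overlapped, and DKO exceeded KI for both (edgeR adjusted p = 0.0221 and 0.0277). A family around Pisd, the mitochondrial phosphatidylserine decarboxylase, was lower as a whole. Pisd had 49.5, 50.7, 50.4 and 46.4 CPM against 58.3, 64.7 and 73.9 CPM (-0.41 ± 0.08 (SE)), Pisd-ps1 had 6.69, 7.74, 6.87 and 8.86 CPM against 15.0, 15.5 and 18.3 CPM (-1.10 ± 0.15 (SE)), and Pisd-ps2 had a log2 fold change of -1.06 ± 0.19 (SE) (edgeR adjusted p = 0.0403, 0.0132 and 0.0258). Pisd shares 94.1% of its bases with each pseudogene and the pseudogenes share 94.8% with each other, so the split between them is uncertain.

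Position relative to the floxed genes was examined because a floxed allele brings along flanking chromosome of the cells it was made in. Within 10 Mb of Epas1, 5 of 68 tested genes differed (7.35%), 3 higher and 2 lower. Within 10 Mb of Hif1a it was 1 of 127 (0.787%), and on the rest of the genome 67 of 16814 (0.398%). Within 5 Mb the counts were 2 of 32 (6.25%) near Epas1 and 1 of 76 (1.32%) near Hif1a, and within 20 Mb 5 of 110 (4.55%) and 3 of 244 (1.23%). These counts rested on few kidneys: without the Cre(-) libraries 0 genes within 10 Mb of Epas1 and 3 within 10 Mb of Hif1a passed, and without Hif1a KO replicate 1 or 3 or Hif2a KO replicate 2 none did near Epas1. The genes near Epas1 were Cox7a2l, Cebpz, Gm6548, Lhcgr and Gpatch11, and the gene near Hif1a was Sptb, which encodes a spectrin. The count near Epas1 includes Cox7a2l, whose call does not hold for its sum with the pseudogene Gm6969, as described below. It also includes Gm6548, a pseudogene 96.7% identical to Eef1a1, so reads may be split between those copies. Acot1 and Acot2, described above, lie within 20 Mb of Hif1a. The plot by distance shows that most neighbours of either floxed gene lie near 0, with Lhcgr far below.

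**Figure D3:**
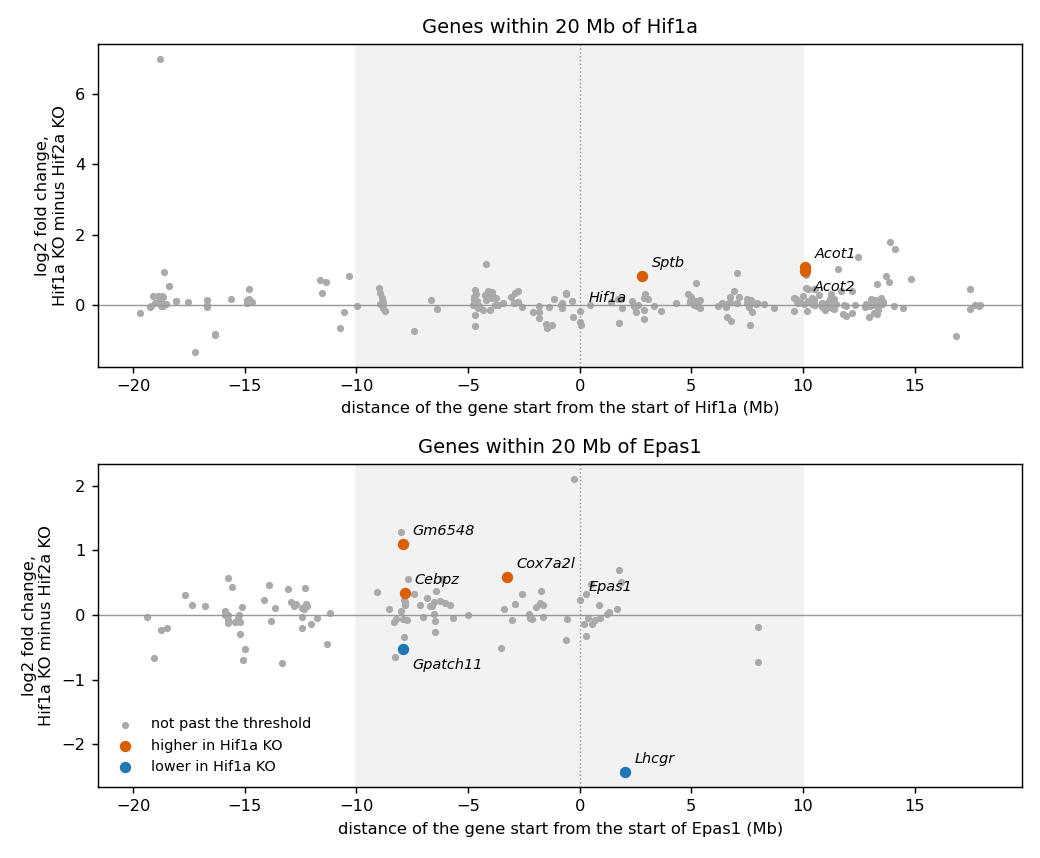
Log2 fold change of Hif1a KO minus Hif2a KO (vertical) against the distance of each gene's start from the start of Hif1a (upper panel) or Epas1 (lower panel) in Mb, with grey shading for 10 Mb either side. Coloured points passed the threshold: 5 of 68 genes in the shaded part of the lower panel and 1 of 127 in that of the upper panel.

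Gpatch11, a splicing-related protein with a G-patch domain, had 20.0, 21.9, 19.6 and 16.9 CPM in Hif1a KO and 31.1, 26.5 and 26.8 CPM in Hif2a KO (-0.52 ± 0.10 (SE), edgeR adjusted p = 0.036). In DKO, which has the floxed Epas1 allele too, it had 22.9, 30.1 and 28.6 CPM, against 20.1, 20.2 and 21.3 CPM in KI (0.41 ± 0.11 (SE), edgeR adjusted p = 0.0253). Cebpz, a transcription factor of ribosome biogenesis, was the reverse, with 48.6, 49.7, 46.6 and 49.3 CPM against 42.2, 37.1 and 36.3 CPM and 40.6, 38.5 and 39.2 CPM in DKO against 43.1, 50.6 and 45.4 CPM in KI (edgeR adjusted p = 0.0437 and 0.0446). Gm6548, a pseudogene that shares 96.7% of its bases with the elongation factor gene Eef1a1, had 15.2, 14.7, 13.9 and 15.5 CPM against 5.79, 8.05 and 6.93 CPM (edgeR adjusted p = 0.0305). For all 3 genes the groups with the floxed Epas1 allele lay on the same side, except DKO replicate 1 for Gm6548 and Gpatch11, which was nearer to the kidneys without that allele. Sptb had 50.8, 69.0, 58.3 and 62.7 CPM against 29.4, 39.8 and 33.3 CPM (0.82 ± 0.14 (SE), edgeR adjusted p = 0.0258), but DKO and KI did not differ in it (log2 fold change -0.01 ± 0.15 (SE), edgeR adjusted p = 0.967).

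Cox7a2l and Gm6969 moved in opposite directions and belong together. Cox7a2l (chromosome 17, 83501918 to 83517330), which encodes a factor of respiratory supercomplexes, had 168, 173, 149.7 and 146 CPM in Hif1a KO and 98.1, 110.4 and 109 CPM in Hif2a KO (0.59 ± 0.11 (SE), edgeR adjusted p = 0.0309). Gm6969 (chromosome 12, 24638669 to 24639010), a processed pseudogene on another chromosome, had 0.358, 0.675, 1.05 and 0.82 CPM against 84.1, 90.7 and 83.5 CPM and was 115-fold lower in Hif1a KO (-6.85 ± 0.40 (SE), edgeR adjusted p = 3.37e-07). The transcripts are 98.0% identical over 342 aligned columns, and 6 bases of the pseudogene, in capitals below, are absent from Cox7a2l in the reference. The stretch shown is bases 186 to 250 of the Gm6969 transcript and bases 241 to 299 of the Cox7a2l transcript, within its coding sequence, from the GENCODE M21 transcripts.
Gm6969: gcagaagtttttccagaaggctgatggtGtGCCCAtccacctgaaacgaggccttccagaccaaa
Cox7a2l: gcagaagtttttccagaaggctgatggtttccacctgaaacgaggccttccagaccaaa
Laboratory mouse strains are known to carry a shorter and a longer Cox7a2l allele that differ by a short in-frame stretch at this part of the gene. Summed over both genes the level was 147 to 174 CPM in Hif1a KO and 182 to 201 CPM in Hif2a KO, without overlap, with Hif2a KO now the higher group. Gm6969 took 43.5% to 46.1% of that sum in Hif2a KO and 25.9% to 47.1% in DKO, and at most 1.01% in every Hif1a KO, KI and Cre(-) kidney. It exceeded 1.33 CPM only in the 6 kidneys whose genotype has the floxed Epas1 allele. The call of Cox7a2l as higher in Hif1a KO does not hold for the sum of the 2 genes, and which allele the kidneys carry was not tested.

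A second pair followed the floxed Hif1a allele. Gm4742 (chromosome 14, 52368918 to 52369688) is a pseudogene 96.5% identical to Psma3, a proteasome subunit gene at 70974621 to 70996347 on chromosome 12, the chromosome of Hif1a. It had 1.43, 3.06, 1.64 and 2.3 CPM in Hif1a KO, and in Hif2a KO 1 count in all over the 3 libraries (edgeR adjusted p = 0.0403). It had 1.85, 2.05 and 1.95 CPM in DKO, 2.47 and 3.11 CPM in the Cre(-) kidneys with the floxed Hif1a allele, and 0.0631 to 0.132 CPM in KI and in the Cre(-) kidneys without it. It was the one of the 73 genes that also passed between the Cre(-) pairs with and without that allele (edgeR adjusted p = 0.00403), where 7 genes passed in all (0.0411%), 5 higher (0.0294%) and 2 lower (0.0118%) with the allele. The difference was therefore present without Cre. The pair is shown around its widest gap, at bases 480 to 543 of Gm4742 and 607 to 666 of Psma3, with the bases that differ in capitals.
Gm4742: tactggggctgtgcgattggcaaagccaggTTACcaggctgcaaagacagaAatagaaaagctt
Psma3: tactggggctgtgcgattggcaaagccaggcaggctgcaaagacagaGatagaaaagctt
Psma3 itself had 21.9 to 28.8 CPM in Hif1a KO and 22.5 to 24.9 CPM in Hif2a KO, and Gm4742 took 4.74% to 11.4% of the sum of both in Hif1a KO. The stacked plot shows both pseudogenes next to the genes they resemble in all 17 kidneys.

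**Figure D4:**
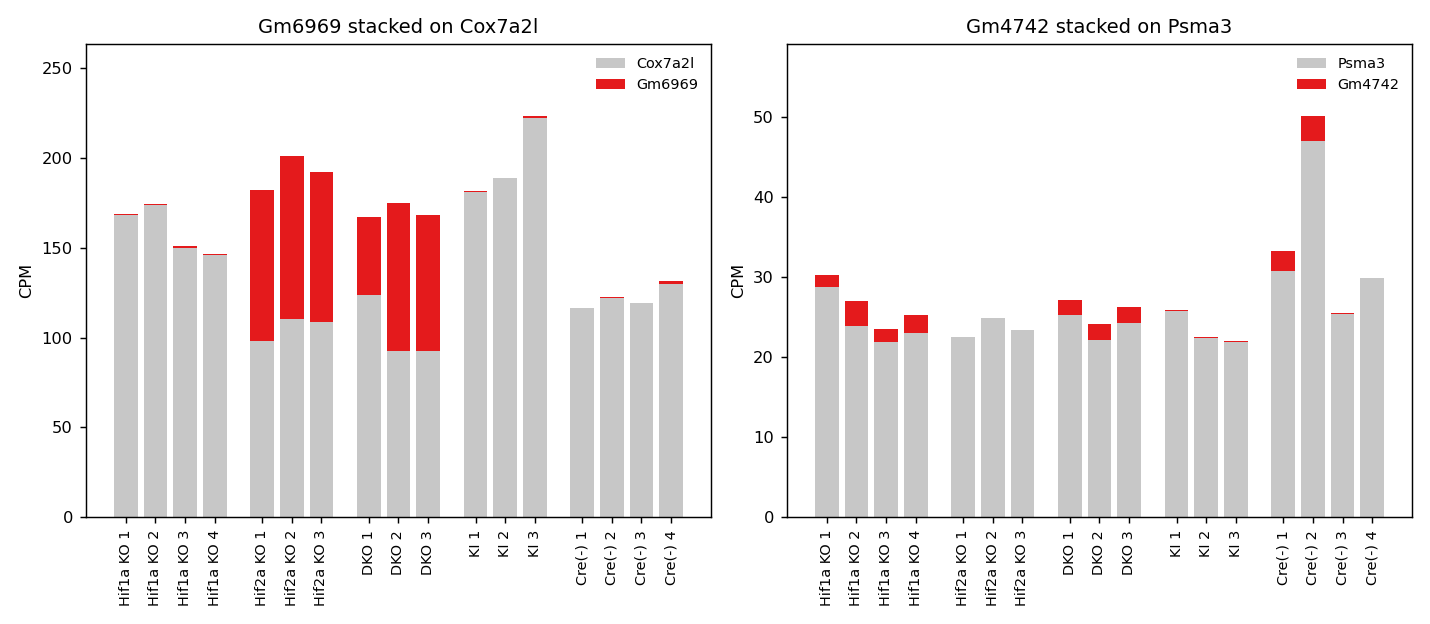
CPM of the pseudogenes Gm6969 and Gm4742 (red) stacked on the genes Cox7a2l and Psma3 that they resemble (grey), 1 bar for each of the 17 kidneys. Gm6969 is visible in the 3 Hif2a KO and 3 DKO kidneys, which carry the floxed Epas1 allele, and Gm4742 in the 4 Hif1a KO, 3 DKO and first 2 Cre(-) kidneys, which carry the floxed Hif1a allele.

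In the 2 lists of classical targets of the factors no gene passed the threshold. Angptl4 and Hif3a, described above, are in neither list. Of 40 tested hypoxia targets mostly assigned to HIF1a (glycolysis, mitophagy, collagen hydroxylases), edgeR called 0, 6 had an unadjusted p under 0.05, a share close to the 14.9% of all genes, with 2 higher and 4 lower, DESeq2 and limma called 0, and the median was -0.10. Pgk1, a glycolytic kinase, had 179.6, 140.0, 115 and 119.7 CPM against 128, 125 and 133 CPM (log2 fold change 0.11 ± 0.18 (SE)). Ldha, the lactate dehydrogenase subunit, had 297, 280.0, 247 and 265 CPM against 275, 291 and 330.1 CPM (-0.13 ± 0.13 (SE)). In both the groups overlapped (edgeR adjusted p = 0.835 and 0.685). Slc2a1, the glucose transporter GLUT1, differed by 0.03 ± 0.22 (SE) (edgeR adjusted p = 0.968). Of 30 targets mostly assigned to HIF2a, edgeR called 0 and the median was 0.155. At an unadjusted p under 0.05 there were 8, with 6 higher (7.99% of all genes) and 2 lower (6.96%). DESeq2 called 2 higher (344 of 17011 genes), and limma 0. Vegfa, the vascular growth factor, had 187, 196, 169.5 and 177 CPM against 186, 186 and 182 CPM (-0.02 ± 0.13 (SE), edgeR adjusted p = 0.969), and Ccnd1, the cyclin D1 gene, had 696, 946, 759 and 855 CPM against 918, 1057 and 1220.4 CPM (-0.39 ± 0.18 (SE), edgeR adjusted p = 0.331).

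Lipid synthesis genes leaned lower in Hif1a KO without passing. Of 37 tested genes of SREBP factors and their targets, edgeR called 0 and the median was -0.17. At an unadjusted p under 0.05 there were 11, with 2 higher (7.99% of all genes) and 9 lower (6.96%). DESeq2 called 1 higher and 3 lower (344 and 199 of 17011 genes), and limma 0. Srebf1, which encodes SREBP1, had 53.4, 64.9, 58.3 and 63.0 CPM in Hif1a KO and 55.2, 82.6 and 94.5 CPM in Hif2a KO. The groups overlapped at Hif2a KO replicate 1 (-0.37 ± 0.18 (SE), edgeR adjusted p = 0.347). Insig1, the sterol-responsive retention protein of SREBP, had 55.6, 69.6, 52.8 and 70.8 CPM against 70.1, 105 and 190.1 CPM (-0.97 ± 0.28 (SE), edgeR adjusted p = 0.126), with Hif2a KO replicate 3 the highest. Insig2, its paralog, differed by -0.42 ± 0.19 (SE) (edgeR adjusted p = 0.308). Bdh1, an enzyme of ketone bodies, differed by -0.10 ± 0.16 (SE) (edgeR adjusted p = 0.813).

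Genes of fat oxidation and gluconeogenesis leaned higher. Of 33 tested genes of fatty acid oxidation and ketone bodies 31 had a positive log2 fold change, against 47.8% of all genes, with a median of 0.33. EdgeR called 0 of them, 14 had an unadjusted p under 0.05, all higher (7.99% of all genes), DESeq2 called 7 (543 of 17011 over all genes) and limma 0. Without Hif2a KO replicate 1 edgeR called 9 with a median of 0.503, and without Hif1a KO replicate 1 or Hif2a KO replicate 2 the median was 0.203 and 0.207. Of 15 tested genes of gluconeogenesis and fructose use 14 were positive (47.8% of all genes) with a median of 0.73. EdgeR called 0, 9 had an unadjusted p under 0.05, all higher (7.99% of all genes), DESeq2 called 6 higher (344 of 17011 genes) and limma 0. The median of this list was 0.356 without Hif1a KO replicate 1, and 1.141 with 6 genes called by edgeR without Hif2a KO replicate 1. Pck1, the enzyme that commits carbon to gluconeogenesis, had 989, 233, 441 and 431 CPM against 261, 35.8 and 71.0 CPM (2.09 ± 0.63 (SE), edgeR adjusted p = 0.14), and replicate 1 was the highest in each group. Summed proximal tubule markers, the genes of the cells that run these pathways, were 8684, 4397, 5298 and 4906 CPM in Hif1a KO and 6932, 3334 and 3668 CPM in Hif2a KO. Replicate 1 was again the highest in each group, 30 of 34 markers were positive with a median of 0.31, edgeR called 0 with 4 at an unadjusted p under 0.05, and DESeq2 and limma 0. The marker median was 0.033 with 18 positive without Hif1a KO replicate 1, 0.14 without Hif2a KO replicate 2, and 0.866 with 2 called without Hif2a KO replicate 1. With a proximal tubule score in the fit, the median of the gluconeogenesis list was 0.35 and that of the fat oxidation list 0.175.

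Genes of the respiratory chain and of the lysosome, the compartment that TFE3 is known to expand, did not pass. Of 55 nuclear genes of the respiratory chain 53 had a positive log2 fold change, against 47.8% of all genes, with a median of 0.15. EdgeR, DESeq2 and limma called 0, and 8 had an unadjusted p under 0.05, a share close to the 14.9% of all genes. Without Hif1a KO replicate 1 the median was 0.041 and 40 were positive. On log2(TPM + 1), where the median of all genes was -0.077, 43 of the 55 were positive. The 13 protein genes of the mitochondrial genome had a median of 0.34, and the same tools called 0 of them. At an unadjusted p under 0.05 there were 7, with 6 higher (7.99% of all genes) and 1 lower (6.96%). Of 44 targets of the MiT/TFE factors, lysosomal genes among them, edgeR, DESeq2 and limma called 0, 2 had an unadjusted p under 0.05 and the median was 0.03. Gpnmb, a glycoprotein gene that TFE3 fusions are known to induce, had 3269, 7175, 4539 and 7452 CPM in Hif1a KO and 4953, 8779 and 11387 CPM in Hif2a KO. Each group spanned more than a 2-fold range and the groups overlapped (-0.58 ± 0.34 (SE), edgeR adjusted p = 0.443). Sqstm1, the autophagy adaptor p62, was at 942 to 1145 CPM and 978 to 1128 CPM (0.01 ± 0.10 (SE), edgeR adjusted p = 0.969). Of 21 tested iron genes edgeR called 0, 5 had an unadjusted p under 0.05 (14.9% of all genes), and DESeq2 called 2 higher and 1 lower (344 and 199 of 17011 genes). Slc40a1, the iron exporter, had 52.3, 48.9, 47.7 and 51.7 CPM against 35.7, 36.1 and 44.2 CPM (edgeR adjusted p = 0.364). Of 56 tested genes of xenobiotic and glutathione metabolism only Gclc passed. In this list 14 had an unadjusted p under 0.05, all higher (7.99% of all genes), and DESeq2 called 5, all higher (344 of 17011 genes).

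Interferon-stimulated genes leaned lower in Hif1a KO, all 40 of 40 tested having a negative log2 fold change, against 52.2% of all genes. The median was -0.61, and 31 had an unadjusted p under 0.05, all lower, against 6.96% of all genes. EdgeR called 0 and DESeq2 called 16 lower, against 199 of 17011 genes. Limma called 1 on log2(TPM + 1) and 0 on log2(TPM + 0.1). Their summed level was 906 to 1052 CPM in Hif1a KO and 1223 to 1578 CPM in Hif2a KO, so the sums did not overlap. Gbp2, a guanylate-binding protein, had 31.5, 40.9, 34.5 and 40.2 CPM against 67.9, 58.1 and 43.2 CPM and just missed the threshold (-0.62 ± 0.13 (SE), edgeR adjusted p = 0.0501). Isg15, a ubiquitin-like modifier, had 3.41, 4.31, 3.84 and 4.02 CPM against 6.52, 11.0 and 7.79 CPM (-1.11 ± 0.27 (SE), edgeR adjusted p = 0.0871). Hif2a KO replicate 2 was the highest for Isg15 and replicate 1 for Gbp2. Without Hif2a KO replicate 2 the list median was -0.49. The interferon sums of the other groups were 1239.5 to 1329 CPM in DKO, 783 to 989 CPM in KI and 619.9 to 738 CPM in Cre(-).

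Among markers of other cell types edgeR called none in the comparison, while DESeq2 called a few. Lymphocyte and immunoglobulin markers summed to 2555 to 17118 CPM in Hif1a KO and 6765 to 12363 CPM in Hif2a KO, and myeloid markers to 6043 to 7048 CPM and 5270 to 7141 CPM. In both lists the groups overlapped and edgeR called 0 of 39 and 0 of 27 tested genes. At an unadjusted p under 0.05 there were 4 and 5, against 14.9% of all genes. DESeq2 called 1 of the 39 lymphocyte markers, higher, and 3 of the 27 myeloid markers, 1 of them higher and 2 lower. It also called 2 of 16 adipocyte markers and 1 of 22 markers of podocytes and endothelium, all higher. Over all 17011 genes DESeq2 called 344 higher and 199 lower. Adipocyte markers summed to 866 to 1495 CPM in Hif1a KO and 373 to 671 CPM in Hif2a KO, but the list holds Pck1 and the lipid droplet gene Plin4, and the adipocyte hormone Adipoq overlapped at 1.25 to 23.5 CPM against 1.3 to 13.1 CPM. Markers of adrenal gland, skeletal muscle and pancreas summed to at most 28.9 CPM in any of the 7, with Cyp11b1, Cyp11b2, Dbh, Ins2, Myh4, Cpa1, Pnlip and Prss2 at or under the floor. Immediate early and heat shock genes summed to 3814 to 4520 CPM in Hif1a KO and 3402 to 4836 CPM in Hif2a KO. Of the 26 tested, edgeR called 0 and 17 had a positive log2 fold change (47.8% of all genes), with a median of 0.16. At an unadjusted p under 0.05 there were 7, with 6 higher (7.99% of all genes) and 1 lower (6.96%). The groups did not overlap for 8 of the 26 (15.1% of all genes), and DESeq2 called 1, higher. Cell cycle genes leaned lower, with 39 of 44 negative (52.2% of all genes), a median of -0.28 and sums of 1583 to 1942 CPM against 1999 to 2294 CPM. EdgeR, DESeq2 and limma called 0 of them, and 9 had an unadjusted p under 0.05 (14.9% of all genes). Over the 30 lists edgeR called 5 of 777 distinct members (among them Cry1, Hif3a, Plin5 and Gclc), against 0.429% of all genes, and DESeq2 59, against 543 of 17011. The part of cell make-up in any of the differences above was not tested beyond the score fits named.

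**Figure D5:**
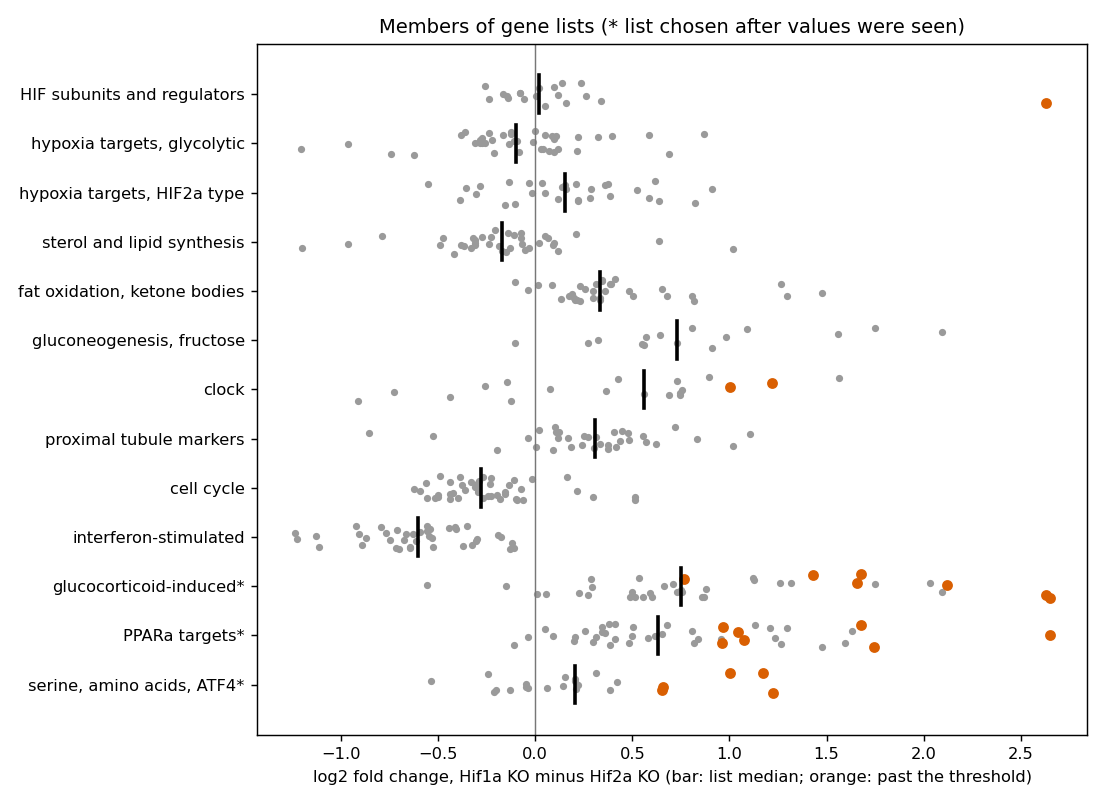
Log2 fold change of Hif1a KO minus Hif2a KO for the tested members of 13 gene lists, 1 point a gene, with orange for genes past the threshold and a black bar at the list median; the 3 lists marked with a star were chosen after values were seen. The interferon list lies wholly below 0, and the called genes lie in the clock list, the HIF list and the 3 starred lists.

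At the genes that separate the single knockouts, DKO levels lay mostly nearer to Hif2a KO than to Hif1a KO. By the group mean of log2(CPM + 0.1) over kidneys, DKO was closer to Hif2a KO for 53 of the 56 higher genes and for 13 of the 17 lower genes. The KI mean was closer to Hif2a KO for 41 of the 56 higher genes and to Hif1a KO for 15, and the Cre(-) mean for 29 and 27. These genes were chosen by the values of Hif1a KO and Hif2a KO, and the same share over all genes was not counted. What is particular to DKO can thus not be read from these counts. Between DKO and KI, which share no library with the comparison, 22 of the 73 genes passed the threshold, against 12.7% of all genes (6.53% higher and 6.19% lower in DKO). Of the 56 genes higher in Hif1a KO, 8 were higher and 9 lower in DKO than in KI, and of the 17 lower ones, 4 were higher and 1 lower. The median difference of DKO minus KI was -0.18 for the higher genes and 0.20 for the lower ones on the log2 scale, against -0.003 for all genes. Bcl6 was higher both in Hif1a KO against Hif2a KO and in DKO against KI (log2 fold change 0.85 ± 0.17 (SE), edgeR adjusted p = 0.0061). Angptl4, with 13.6, 21.3 and 68.5 CPM in DKO and 17.5, 27.8 and 60.1 CPM in KI, overlapped between those groups (edgeR adjusted p = 0.982).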

How the data were processed

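The authors trimmed reads with Trim Galore 0.6.6 and cutadapt 2.5, and the paper names STAR (2.7.9a in the submitters' processing notes) and RSEM. Its methods name hg38 for alignment while the transcripts listed are mouse. The deposited values are expected counts, estimates that need not be whole, and TPM, normalized by the authors for length and library total. Transcripts were matched to GENCODE M21 (116770 of 119353, 97.8%), expected counts were summed to 35971 genes and rounded, and TPM was summed.

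Genes were tested with the quasi-likelihood F-test of edgeR 4.0.16 in R 4.3.3, after TMM scaling and filterByExpr (minimum count 10, 17011 genes kept). All 17 libraries entered the model, which had 1 term for each genotype, and the Benjamini-Hochberg adjustment ran over all genes kept. SE is the log2 fold change over the root of F. Copies were found with blastn 2.17.0 among GENCODE transcripts, and promoter windows of 250 bases came from RefSeq (GRCm38.p6).

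Named genes are Hif1a and Epas1, the up to 15 largest called changes in each direction with a mean TPM of at least 1 and no overlap, called genes within 10 Mb of either floxed gene, called list members, up to 3 highest members of each list described, and 11 genes of the study's question. The comparison, its lists and its tests were chosen with earlier results of these data known. Alternatives were DESeq2 1.42.0, its size factors, no filter, fewer libraries, a replicate block, limma 3.58.1 on log2(TPM + 1) and log2(TPM + 0.1), marker scores as covariates, a fold minimum, other windows and each kidney left out.

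The tests were checked on simulated data with known changes. The 2583 unmatched transcripts were left out, and 3 lists named in the report were added after values were seen. Some genes that the rule for named genes picks are not reported here. The depth and floor given in the report cover counting error only.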

Additional observations from a re-analysis of the deposited data

Results flagged for a closer look

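In 4 of 74 named genes, 1 of the 4 Hif1a KO kidneys stood apart from the other three by Dixon's criterion, which chance alone meets in about 1 of 20 groups. Replicate 1 was high for 3 genes of the proximal tubule and of fat or fructose metabolism: Khk, ketohexokinase, had 159.4 CPM in it against 65.94 to 74.17 CPM in the others. Ass1, argininosuccinate synthase, had 612.5 CPM against 358.5 to 382.8 CPM. Ech1, an enzyme of fatty acid oxidation, had 270.3 CPM against 200.8 to 209.6 CPM. The same kidney had the highest sum of proximal tubule markers of its group, and none of these 3 genes passed the threshold between the knockouts. 3830406C13Rik, lower in Hif1a KO, had 30.69 CPM in replicate 2 against 29.21 to 29.39 CPM, a gap of little more than 1 CPM that lies toward Hif2a KO.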

How the results depend on the processing

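The number of genes called depended on the fit. All 73 called genes kept their sign under all alternatives run, which mostly refit the same kidneys in which they were chosen. In the order higher and lower in Hif1a KO, near Hif1a and near Epas1 (10 Mb), and members of the 30 lists, the counts of 56 and 17, 1 and 5, and 5 became the following. DESeq2 gave 344 and 199, 5 and 10, and 59. The 7 libraries alone gave 94 higher and 22 lower, 3 and 2, and 15. The fit without Cre(-) gave 29 higher and 13 lower, 3 and 0. Limma gave 16 and 11, 0 and 1, and 3 on log2(TPM + 0.1), and 17 and 12, 0 and 1, and 5 on log2(TPM + 1). The early gene score, added after the data were seen, gave 1 and 1, 0 and 0, and 0. The lymphocyte score gave 27 lower and 12 list members, the tubule score 2 genes near Hif1a, and no filter 10 list members. A minimum absolute log2 fold change of 1 gave 25 and 7, with 0 and 2 near the floxed genes. A window of 20 Mb gave 3 near Hif1a and one of 5 Mb 2 near Epas1. Calls were higher in Hif1a KO for 76.7% as reported, 63.4% by DESeq2 and 59.3% and 58.6% by limma. Between the Cre(-) pairs DESeq2 called 266 genes against 7.

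With 1 kidney left out the counts ranged from 0 to 125 higher, 1 to 67 lower, 0 to 3 near Hif1a, 0 to 4 near Epas1 and 0 to 34 list members. Of the 73 genes only Gm6969 passed in all 7 of these fits, Crocc and Prob1 passed in 6, and 10, among them Pdk4, Slc38a2, Bcl6 and Cox7a2l, in none. Replicate numbers name different mice. Deviations of same-numbered kidneys from their group means correlated at 0.135, 0.249 and -0.132 across the knockouts. Those of differently numbered kidneys correlated at -0.36 to 0.228. Whether same-numbered kidneys shared any handling was not tested. The replicate block gave 15 higher and 4 lower, 0 and 0 near the floxed genes and 2 list members.

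None of the 35 called named genes reversed, and 16 of the 42 others did. Reversed log2 fold changes were -0.0637 for Hspa8, -0.137 for Slc2a1, 0.0786 for Acly and 0.0545 for Elob with the early gene score, and -0.0663 for Ass1, -0.3462 for Miox, -0.0032 for Hspa8, -0.0584 for Scd1 and 0.0346 for Fabp5 with the tubule score. On log2(TPM + 0.1) and log2(TPM + 1) they were -0.0202 and -0.0201 for Cdh16, -0.0003 and -0.0002 for Pgk1, and -0.0394 and -0.0389 for Slc2a1. With 1 kidney left out the ranges were -0.0976 to 0.0284 for Acly, -0.0597 to 0.3367 for Ass1, -0.2533 to 0.062 for Bdh1, -0.339 to 0.1392 for Fabp5, -0.0762 to 0.0586 for Gpi1, -0.2914 to 0.0109 for Hif1a, -0.2601 to 0.0709 for Hmgcs1, -0.0889 to 0.1362 for Hsp90aa1, -0.0573 to 0.3599 for Hspa8, -0.4004 to 1.1069 for Miox, -0.0574 to 0.1851 for Pgk1, -0.1489 to 0.4906 for Scd1, -0.1385 to 0.1841 for Slc2a1 and -0.0525 to 0.0178 for Vegfa. A sex score was not run because it could not be computed from the genes in the table. The cause of these shifts was not tested. The 18960 genes that the filter left out for low counts were not tested in the main fit, and some called genes, such as Gpr84, rest on few counts.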
